A study of Mus musculus with 2 samples.

Results

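The genes described here are those whose symbol is Mrpl or Mrps followed by a number, the nuclear genes named for proteins of the mitochondrial ribosome. They were found by matching the gene identifiers of both deposited gene tables, without their version, to GENCODE release M21 and keeping protein-coding genes, so that pseudogenes were left out. This gave 77 genes, 48 Mrpl genes named for the large subunit and 29 Mrps genes named for the small subunit, of 21461 nuclear protein-coding genes in the tables. Mrpl33 was not analysed here. The poly(A) RNA came from heart tissue of 1 mouse, an adult female of 10 weeks from C57BL/6J, a common inbred laboratory strain, with no treatment or genetic change named in the labels. It was sequenced as 2 libraries, technical replicates 1 and 2 of 1 biological replicate, and replicate 2 was prepared in 2015, after the publication that used replicate 1. There was 1 animal and no group to compare, so every value below is a description, and a spread over the 2 libraries is technical.

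Mitochondria keep a small genome of their own and translate its messages, which encode core subunits of the respiratory chain, on ribosomes made in the organelle. The ribosomal RNAs of these ribosomes come from the mitochondrial genome, whereas all of their proteins are encoded in the nucleus, made in the cytosol and imported. The small subunit binds the messenger RNA and holds the decoding centre, and the large subunit forms the peptide bond and releases the new chain at the inner membrane. Some of the proteins have counterparts in bacterial ribosomes and others are found only in mitochondria. Heart muscle is rich in mitochondria and depends on this machinery for its supply of ATP.

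Replicate 1 held 22775991 expected counts and replicate 2 held 19685821. Nuclear genes other than near-identical copies of mitochondrial genes took 7.22% of the TPM in replicate 1 and 39.1% in replicate 2, where TPM is an abundance per transcript length that has the same sum in every library. This left 5028154 nuclear counts in replicate 1 and 12654724 in replicate 2. The deposited TPM of a nuclear gene therefore depended on the library's mitochondrial share. Nuclear TPM, below, is the deposited TPM rescaled to that same sum over those nuclear genes alone, which multiplied TPM by 13.9 in replicate 1 and by 2.56 in replicate 2. The 6 cardiomyocyte markers fixed for a check of the tissue were all present, at 39.7 TPM or more in replicate 1 and at 2361 TPM or more in replicate 2. The summed nuclear TPM of the 5 endothelial markers was 205 and 489, that of the 5 fibroblast markers 2492 and 993, that of the 5 macrophage markers 175 and 367, and that of the 5 red cell markers 1001 and 12857 in replicates 1 and 2. The fibroblast sum was thus lower in replicate 2 and the others higher, but single markers did not all follow. Of the fibroblast markers 1 was at least 2-fold higher and 2 at least 2-fold lower, and Dcn alone held 1979 and 773. Of the endothelial markers 4 were higher by that limit and of the macrophage markers 3, while Kdr (105 and 82.6) and Adgre1 (9.70 and 6.65) were slightly lower. Of the cardiomyocyte markers 5 were higher and Pln was lower. By that limit, 33.4% of all nuclear genes with at least 20 counts over both libraries were higher and 29.2% lower. The part of these cell types in the results below was not tested. Heart tissue holds all of these cells. The libraries are technical replicates of 1 animal, so a difference between them cannot be read as fewer cells of a type or as less RNA per cell.

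Sequences before the transcription start were compared first, because they are independent of the libraries. RefSeq promoter windows (assembly GRCm38.p6, 250 bases before to 50 after the start) were found for 68 of the 77 genes, and 3 of these had more than 1 window. Their median GC content was 58.8%, against 52.7% over all windows. Exact matches on either strand were counted for the ETS motif CCGGAAG, the NRF1 motif GCGCATGC, the YY1 motif AAGATGG, the estrogen-related receptor motif AAGGTCA, the CCAAT box, the GC box GGGCGG and the TATA box TATAAA. NRF1, the ETS factor GABP, YY1 and the estrogen-related receptors are known as regulators of nuclear genes for mitochondrial proteins. The 6 windows printed here were chosen for their mix of matches and for the genes they belong to, with ETS, NRF1, YY1 and estrogen-related receptor matches in capitals, read 5′ to 3′ on the strand of the gene.

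Mrps12 belongs to a decoding centre protein and carries a YY1 and an ETS match, and Mrps18b carries 2 NRF1 matches and an ETS match. Mrpl32 carries a YY1 match and several NRF1 matches, some of which overlap. Mrpl42 is the most abundant of the genes. Mrps11 lies head to head with Mrpl46, another gene of the set. Mrpl36 lies head to head with Ndufs6, a gene for a complex I subunit, by its annotated start at chr13:73328513. The window printed for Mrpl36 lies downstream of that start, inside the gene, so it is not the stretch next to Ndufs6. It holds an estrogen-related receptor match beside a YY1 match.
Mrps12 (chr7:28741772-28742071, minus strand): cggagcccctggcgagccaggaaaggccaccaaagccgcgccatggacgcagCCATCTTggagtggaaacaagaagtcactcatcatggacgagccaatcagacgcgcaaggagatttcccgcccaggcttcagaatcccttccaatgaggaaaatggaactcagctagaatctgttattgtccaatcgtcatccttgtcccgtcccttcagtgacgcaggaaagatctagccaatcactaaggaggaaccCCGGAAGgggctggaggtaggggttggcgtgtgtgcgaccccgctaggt
Mrps18b (chr17:35916391-35916690, minus strand): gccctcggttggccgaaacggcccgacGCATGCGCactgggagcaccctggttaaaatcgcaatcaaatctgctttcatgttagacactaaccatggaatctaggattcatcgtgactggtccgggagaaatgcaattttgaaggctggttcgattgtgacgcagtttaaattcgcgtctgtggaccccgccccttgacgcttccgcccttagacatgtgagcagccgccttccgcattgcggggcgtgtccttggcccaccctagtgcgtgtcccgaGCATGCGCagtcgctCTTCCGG
Mrpl32 (chr13:14612988-14613287, minus strand): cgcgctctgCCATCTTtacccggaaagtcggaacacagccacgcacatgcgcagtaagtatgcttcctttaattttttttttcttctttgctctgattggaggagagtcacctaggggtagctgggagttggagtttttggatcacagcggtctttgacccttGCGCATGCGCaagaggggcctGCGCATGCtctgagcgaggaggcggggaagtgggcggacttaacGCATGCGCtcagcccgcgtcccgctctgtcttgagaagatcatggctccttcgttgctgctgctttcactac
Mrpl42 (chr10:95501900-95502199, minus strand): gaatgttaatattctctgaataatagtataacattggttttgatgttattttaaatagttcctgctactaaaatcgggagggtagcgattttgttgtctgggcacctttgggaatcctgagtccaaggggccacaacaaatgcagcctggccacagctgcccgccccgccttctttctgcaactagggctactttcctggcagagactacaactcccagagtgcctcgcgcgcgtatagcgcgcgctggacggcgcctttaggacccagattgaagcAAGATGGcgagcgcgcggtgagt
Mrps11 (chr7:78782881-78783180, plus strand): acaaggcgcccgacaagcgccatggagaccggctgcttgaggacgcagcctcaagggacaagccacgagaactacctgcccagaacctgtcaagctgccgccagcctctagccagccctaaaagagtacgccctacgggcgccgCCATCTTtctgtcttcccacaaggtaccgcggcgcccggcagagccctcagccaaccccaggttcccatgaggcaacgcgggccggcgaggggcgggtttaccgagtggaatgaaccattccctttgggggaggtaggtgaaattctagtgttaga
Mrpl36 (chr13:73330759-73331058, plus strand): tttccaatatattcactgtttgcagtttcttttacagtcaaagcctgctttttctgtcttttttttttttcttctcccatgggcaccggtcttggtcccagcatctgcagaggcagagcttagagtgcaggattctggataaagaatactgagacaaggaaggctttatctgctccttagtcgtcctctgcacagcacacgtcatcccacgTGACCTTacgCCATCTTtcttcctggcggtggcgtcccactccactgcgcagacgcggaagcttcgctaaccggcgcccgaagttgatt

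The ETS motif was found in the windows of 25 of the 68 genes (36.8%), against 9.93% of 27025 genes with a window and 19.7% of 9825 protein-coding genes with a window and at least 20 counts in these libraries. It was present in 33.3% of the Mrpl and 42.3% of the Mrps genes, in 24.2% of 66 nuclear genes for respiratory chain subunits and in 41.7% of 60 genes for cytosolic ribosomal proteins. The YY1 motif was found in 13 genes (19.1%), against 8.23% of the protein-coding genes with counts. The NRF1 motif was found in 7 genes (10.3%), against 5.92%, and in 14.3% of the Mrpl and 3.85% of the Mrps genes. The other motifs differed less or lay below the share in protein-coding genes with counts. The GC box was in 50% of the genes against 68.6%, the CCAAT box in 38.2% against 42.8%, the TATA box in 7.35% against 9.03% and the estrogen-related receptor motif in 5.88% against 3.94%. The 25 genes with an ETS match had a median nuclear TPM of 25.9 and 114 in replicates 1 and 2, and the 43 without one had 50.6 and 83.9. The order of these medians thus turned between the libraries. A match describes the letters of a window and is no evidence of binding.

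The genes also share a feature of their position. Of the 77 genes, 26 (33.8%) start head to head with another protein-coding gene on the other strand, with the starts at most 1000 bases apart or overlapping by at most 500 bases. The share was 13.8% of the 12463 protein-coding genes with at least 20 counts, 31.7% of 82 nuclear respiratory chain genes and 17.5% of 80 cytosolic ribosomal protein genes. Mrpl46 (chr7:78775236-78783531, minus strand) and Mrps11 (chr7:78783119-78792989, plus strand) overlap by 413 bases at their starts and join a large and a small subunit gene. Mrps12 starts 172 bases from Sars2, the mitochondrial seryl-tRNA synthetase, and Mrps27 starts 81 bases from Ptcd2, which encodes a mitochondrial RNA-binding protein. Mrpl49 starts 59 bases from Fau, the gene of a cytosolic ribosomal protein made as a fusion, and Mrpl32 starts 75 bases from Psma2, a proteasome subunit. The genes lie on 17 chromosomes, with at most 11 on one of them.

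All 77 genes were detected in both libraries, with 1 to 933 expected counts per gene in replicate 1 and 210 to 2489 in replicate 2. Together they held 13642 counts in replicate 1 (0.271% of its nuclear counts) and 51764 in replicate 2 (0.409%). The median was 110 counts in replicate 1 and 542 in replicate 2. In replicate 1, 18 genes had under 20 counts and 9 had under 10, and none did in replicate 2, so the levels of replicate 2 rest on more reads. The median TPM was 3.10 in replicate 1 (range 0.06 to 52.0) and 36.5 in replicate 2 (range 5.26 to 269). At least 1 TPM was reached by 56 genes in replicate 1 and by all 77 in replicate 2. On the nuclear scale the medians were 42.9 and 93.4, and 76 genes reached 1 nuclear TPM in both libraries, Mrpl4 in replicate 1 being the exception at 0.83. Ranked among nuclear protein-coding genes, the median gene of the set stood at percentile 84.4 in replicate 1 and 93.1 in replicate 2. At or above percentile 90 stood 23 of the 77 genes in replicate 1 and 55 in replicate 2.

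**Figure D1:**
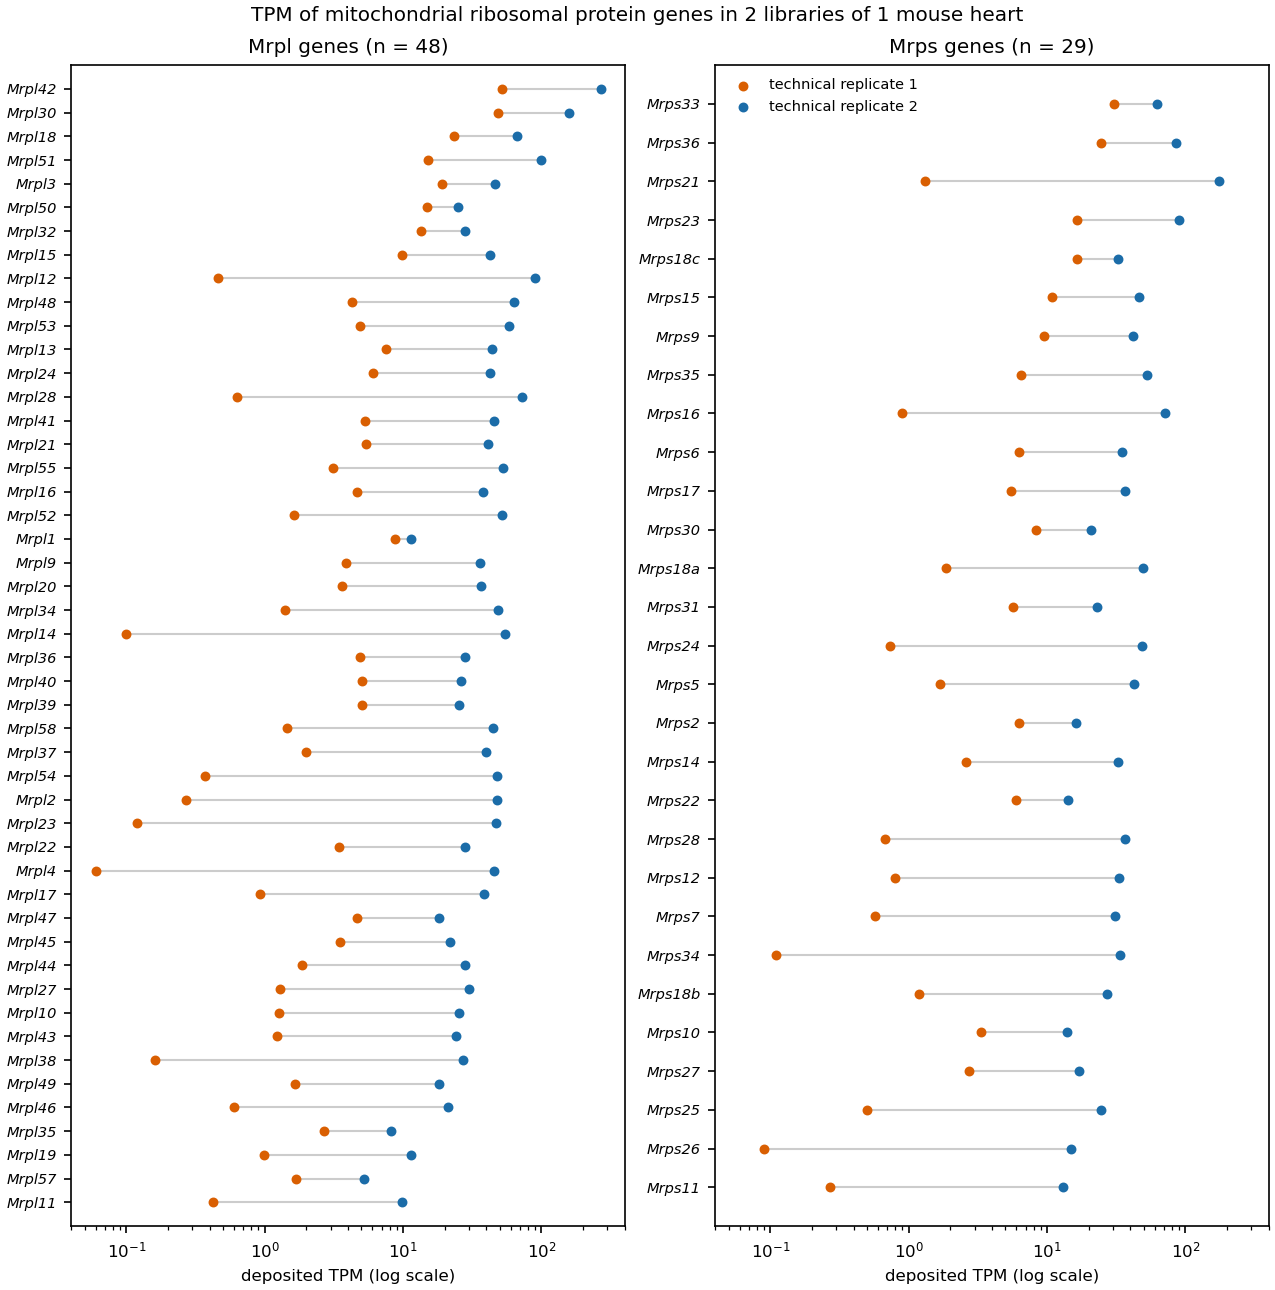
Deposited TPM on a log axis for each Mrpl gene (left) and Mrps gene (right), with technical replicate 1 in orange and technical replicate 2 in blue, ordered by mean nuclear TPM. Each gene has a higher TPM in replicate 2, and the values spread from 0.06 to 52.0 in replicate 1 and from 5.26 to 269 in replicate 2.

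Mrpl42 (chr10:95480805-95501940), a large subunit protein found only in mitochondria, had the highest TPM in both libraries, 52.0 in replicate 1 and 269 in replicate 2 (161 ± 154, mean ± SD, n = 2 libraries). On the nuclear scale these values lay close together, 721 and 689. Mrpl30, a large subunit protein with a bacterial counterpart, came next among the large subunit genes with 48.9 and 158 TPM (104 ± 77.3, SD, n = 2 libraries). Mrpl18, a large subunit protein with a bacterial counterpart, had 23.3 and 66.7 TPM, and Mrpl51 had 15.1 and 98.8 TPM. Mrpl3 had 19.2 and 46.4 TPM and Mrpl50 had 14.9 and 24.8 TPM.

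Among the Mrps genes, Mrps33 had 30.6 and 62.4 TPM, Mrps36 had 24.6 and 85.7 TPM, and Mrps23 had 16.5 and 89.4 TPM. Mrps36 carries a ribosomal name but is known as a subunit of the 2-oxoglutarate dehydrogenase complex. Mrps18c had 16.3 and 32.4 TPM and Mrps15 had 10.9 and 45.8 TPM. Mrps21, the counterpart of a bacterial small subunit protein, had 1.32 TPM on 14 counts in replicate 1 and 174 TPM on 912 counts in replicate 2. It was thus the second gene of the set in replicate 2 and well below the median in replicate 1. Of the 10 genes of highest nuclear TPM in each library 6 were shared, namely Mrpl18, Mrpl30, Mrpl42, Mrpl51, Mrps23 and Mrps36.

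The lowest mean nuclear TPM among the Mrpl genes was that of Mrpl11, with 0.42 and 9.81 TPM. Mrpl57 had 1.68 and 5.26 TPM, Mrpl19 had 0.99 and 11.4 TPM, and Mrpl35 had 2.67 and 8.15 TPM. Among the Mrps genes the lowest were Mrps11 with 0.27 and 13.1 TPM, Mrps26 with 0.09 and 14.9 TPM, Mrps25 with 0.50 and 24.7 TPM, and Mrps27 with 2.71 and 16.9 TPM. Each of these 8 genes encodes a structural part of the ribosome. The highest nuclear TPM was 867 times the lowest in replicate 1 and 51.2 times in replicate 2. The 5 highest genes held 37.7% of the set's TPM in replicate 1 and 23.2% in replicate 2. Across the 77 genes, the log2 nuclear TPM of the libraries correlated weakly (Pearson r = 0.25, Spearman rho = 0.17). The level in replicate 2 was lower for longer transcripts (r = -0.66 with effective length), and the genes are not independent replicates. TPM is divided by this same length, so a negative relation is partly built in.

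The median level of the large subunit genes was slightly above that of the small subunit genes in both libraries. The median TPM of the 48 Mrpl genes was 3.27 in replicate 1 and 39.1 in replicate 2, and that of the 29 Mrps genes was 2.71 and 33.5. The ratio of the medians, Mrpl over Mrps, was 1.21 in replicate 1 and 1.17 in replicate 2 (mean log2 ratio 0.25 ± 0.03, SD, n = 2 libraries). The ratio of the sums was 1.77 and 1.80, with 1.66 times as many Mrpl as Mrps genes. The ranges overlapped almost wholly, from 0.06 to 52.0 TPM for Mrpl and from 0.09 to 30.6 TPM for Mrps genes in replicate 1. In replicate 2 the ranges were 5.26 to 269 and 13.1 to 174 TPM. Among the 36 Mrpl and 20 Mrps genes with at least 1 TPM in both libraries, the medians were 4.66 and 6.12 TPM in replicate 1, so that the order turned there, and 37.0 and 35.8 TPM in replicate 2, where it did not. The mean log2 ratio of these medians was -0.17. Median expected counts, which grow with transcript length, were 92 for Mrpl and 127 for Mrps genes in replicate 1, and 546 and 542 in replicate 2.

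Symbols do not follow the structure of the ribosome throughout. Mrps18a and Mrps30 sit in the large subunit and Mrps36 in neither. Counted that way, 50 large and 26 small subunit genes gave ratios of the medians of 1.23 and 1.17. The 45 genes classed as having a bacterial counterpart had median TPM of 3.10 and 37.7. The 31 genes classed as without one, Mrps18a and Mrps18b included, had 2.71 and 27.2. The ratio of these medians was 1.14 in replicate 1 and 1.39 in replicate 2. Within the large subunit the medians were 3.45 and 41.4 TPM for the 29 genes with a bacterial counterpart, against 2.00 and 27.9 TPM for the 21 without one. Within the small subunit they were 2.13 and 35.7 TPM for 16 genes, against 4.18 and 25.9 TPM for 10 genes, so that there the order differed between the libraries.

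Genes with defined roles in the ribosome were compared within each library. Mrpl10, Mrpl11 and Mrpl12 form the stalk and its base, where translation factors bind. Mrpl10 had 1.26 and 25.5 TPM, and Mrpl12 had 0.46 TPM on 17 counts and 89.5 TPM on 1952 counts. Mrpl10 over Mrpl11 was 3.0 in replicate 1 and 2.60 in replicate 2, so this ratio was alike in both. Mrpl12 over Mrpl10 was 0.365 in replicate 1 and 3.51 in replicate 2, and its direction turned. The stalk holds several copies of Mrpl12 for each Mrpl10.

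Mrps18a, Mrps18b and Mrps18c are paralogues related to 1 bacterial protein. Mrps18a had 1.87 and 49.5 TPM, Mrps18b had 1.18 and 27.2 TPM, and Mrps18c had 16.3 and 32.4 TPM. Mrps18a over Mrps18b was 1.58 and 1.82 in replicates 1 and 2, whereas Mrps18c over Mrps18a was 8.73 and 0.654. Of the paralogues, Mrps18c was thus highest in replicate 1 and Mrps18a in replicate 2. Mrps12 had 0.79 TPM on 5 counts and 33.3 TPM on 347 counts. Mrpl58, a peptidyl-tRNA hydrolase built into the large subunit, had 1.44 and 44.7 TPM. Mrpl44, related to ribonuclease III, had 1.87 and 27.9 TPM, and Mrps30 had 8.26 and 20.7 TPM. For the head-to-head genes Mrpl46 and Mrps11, Mrpl46 over Mrps11 was 2.22 in replicate 1 and 1.62 in replicate 2. The replicate 1 ratio rests on 18 counts for Mrpl46 and 7 for Mrps11, so their order there is uncertain.

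The libraries were compared on the nuclear scale as log2 of (nuclear TPM + 1), replicate 2 over replicate 1. The fold of a low gene is understated on this scale. A gene was counted as higher or lower at a difference of at least 2-fold, with no p-value, since each side is 1 library. Of 13154 nuclear genes with at least 20 counts over both libraries, 33.4% were higher and 29.2% were lower in replicate 2. All 77 genes of the set had at least 20 counts over both libraries, and 37 were higher (48.1%), 9 were lower (11.7%) and 31 were neither. Their median log2 ratio was 0.87 against -0.01 over all 13154 genes. The ratios ran from -2.01 for Mrpl1 to 5.99 for Mrpl4. Of the Mrpl genes 23 were higher and 4 lower (median 0.93), and of the Mrps genes 14 were higher and 5 lower (median 0.57). Among the 59 genes with at least 20 counts in each library, a minimum chosen after seeing the data, 19 were higher and 9 lower, against 17.3% and 40.3% of all genes at that minimum. Their median log2 ratio was 0.27 against -0.67.

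The largest ratios belonged to genes with few counts in replicate 1. Mrpl4, at the exit tunnel of the large subunit, had 2 counts and 0.83 nuclear TPM in replicate 1 against 960 counts and 116 nuclear TPM in replicate 2. The nuclear TPM ratio of Mrpl4 was 139 with a 95% exact binomial interval of 38.5 to 1152. Mrpl14, at the interface of the subunits, had 1 count against 455, Mrpl23, also at the exit tunnel, had 2 against 359, and Mrps34, found only in mitochondria, had 4.42 against 485. The nuclear TPM of Mrpl14 was 1.39 and 139, a ratio of 100.3 with an interval of 17.9 to 3968. These intervals cover counting error only, and reads are not independent molecules.

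The smallest ratios belonged to well-counted genes. Mrpl1, of the stalk at the tRNA exit site, had 653 counts and 121 nuclear TPM in replicate 1 and 521 counts and 29.2 nuclear TPM in replicate 2. Its ratio, replicate 1 over replicate 2, was 4.14 with a 95% exact binomial interval of 3.68 to 4.65. The same ratio was 3.26 for Mrpl50, 2.73 for Mrps18c and 2.66 for Mrps33. The other genes counted as lower in replicate 2 were Mrpl3, Mrpl32, Mrps2, Mrps22 and Mrps30.

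GC content moved with this difference, in the set as in all genes. Across the 77 genes the log2 ratio correlated with the GC content of the transcripts at r = 0.81 and rho = 0.78, and across 13128 genes with a value at r = 0.83 and rho = 0.88. The 37 genes higher in replicate 2 had a median GC content of 54.7% (45.2% to 60.6%) and the 9 lower ones 44.2% (40.5% to 49.8%). Of the 12 genes under 47% GC, 1 was higher and 6 were lower, with a median log2 ratio of -0.95 against -1.49 for all genes of that range, of which 0.609% were higher and 75.02% lower. From 47% to 50% GC, the 19 genes had a median of 0.30 against -0.38. From 50% to 53% GC, the 22 genes had a median of 0.71 against 0.51. From 53% to 56% GC, 10 of 11 genes were higher (68.2% of all genes), with a median of 2.46 against 1.57. At 56% GC or more, all 13 genes were higher (91.0% of all genes), with a median of 4.33 against 2.73, and their replicate 1 counts were 1 to 21. In each of the 5 ranges the median of the set lay above that of all genes, but the levels were not matched. At 56% GC or more the median nuclear TPM was 5.13 and 123 for the set and 1.11 and 17.5 for all genes. The pseudocount thus lowers the ratios of all genes more there, and the fold of these median levels was 23.9 for the set and 15.8 for all genes. With the median ratio of genes of like GC content removed, 26 genes were higher and 3 lower (13.4% and 10.6% of all genes), and the median of the set was 0.59. The sign turned for 19 genes, among them Mrpl32, Mrpl50, Mrps30 and Mrps33 of the 9 lower ones and Mrpl34, Mrpl53 and Mrps12 of the 37 higher ones. Their log2 ratios were then 0.23, 0.0067, 0.32 and 0.012, and -0.083, -0.20 and -0.089, all under the 2-fold limit. The part of GC content in these differences was not tested.

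**Figure D2:**
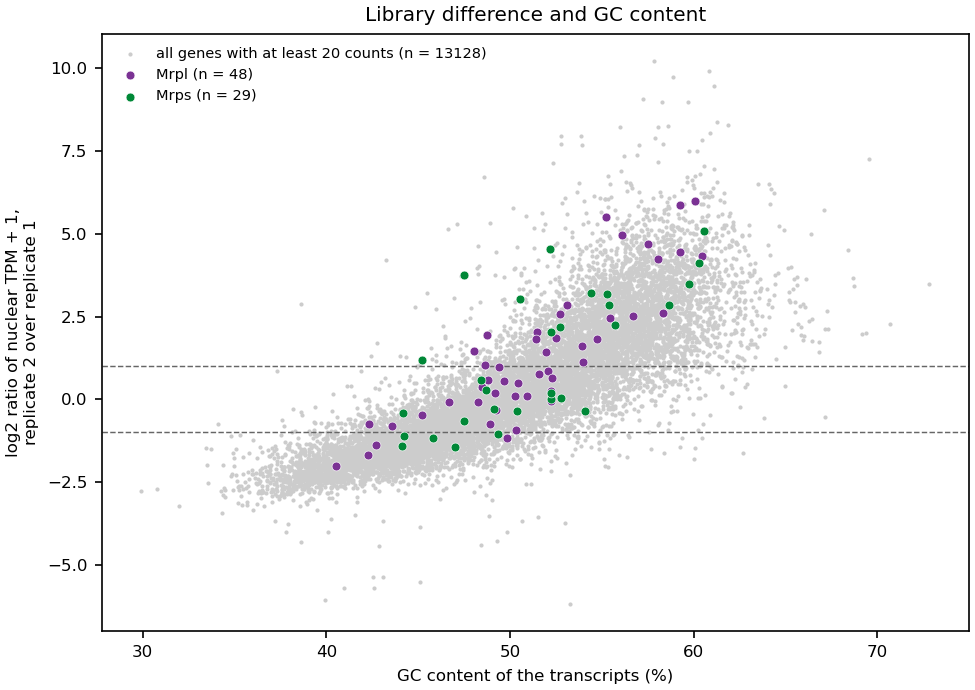
log2 ratio of nuclear TPM + 1, replicate 2 over replicate 1, against the GC content of the transcripts in percent, for Mrpl genes (purple), Mrps genes (green) and all nuclear genes with at least 20 counts over both libraries (grey). The dashed lines mark a 2-fold difference, and the ratios of the set run from -2.01 to 5.99 and are higher at higher GC content, as are those of the other genes.

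A few genes stood away from other genes of their GC content. Mrps16, the counterpart of a bacterial small subunit protein, has a GC content of 47.5% and had 11 counts and 12.3 nuclear TPM in replicate 1 against 517 counts and 181 nuclear TPM in replicate 2. Its log2 ratio was 3.77, and 4.36 with the GC trend removed, the largest of the set on that scale. Mrps21 had 3.87 and Mrpl23 had 3.42 with the trend removed. In the other direction stood Mrps15 with -1.70, Mrpl3 with -1.13 and Mrpl18 with -1.07. These genes were singled out after their values were seen. Of the 20 lowest genes of replicate 1, Mrpl12, Mrpl14, Mrpl28, Mrps16 and Mrps24 were among the 20 highest of replicate 2.

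TPM also depends on which transcripts a gene is assigned. The effective length of a gene differed at least 1.5-fold between the libraries for 12 of the 77 genes and was longer in replicate 1 for 9 of them. The share over all genes is not given here, so these counts are no result about the set. Mrps25 was assigned 83 counts over 5090 bases in replicate 1 and 512 counts over 1071 bases in replicate 2. Its log2 ratio was 3.02 in nuclear TPM and 1.14 in TMM-scaled counts, which do not use the length. Mrpl17 was assigned 110 counts over 3661 bases and 509 counts over 680 bases, and its log2 ratio was 2.85 in nuclear TPM and 0.73 in scaled counts. For Mrps14, with 214 counts over 2535 bases and 482 over 760 bases, the direction turned, from 1.20 in nuclear TPM to -0.31 in scaled counts.

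The share of each gene's abundance given to each transcript was compared for the genes with at least 20 counts in each library. There were 59 such genes, 15 of them with 1 transcript in the tables. Of the 44 others, the same transcript led in both libraries for 24 and different ones for 20. The share over all genes is not given here, so the counts of leading transcripts are no result about the set. For Mrpl10 the transcript Mrpl10-201 held 100% in both libraries, and for Mrps2 the transcript Mrps2-201 held 100% and 99.4%. In 8 of the 20 the leading transcript was not annotated as coding in replicate 1 and was in replicate 2, in 5 the reverse held, in 6 both were coding and in 1 neither was. For Mrps6 the leading transcript was Mrps6-202, without a coding sequence, in replicate 1 (86.9%) and the coding Mrps6-201 in replicate 2 (99.2%). For Mrpl22 the coding Mrpl22-201 held 25.2% in replicate 1 and 96.5% in replicate 2. For Mrps18a the coding Mrps18a-201 held 35.3% and 89.1%, and a transcript annotated as retaining an intron led in replicate 1. A transcript of that kind also led in replicate 1 for Mrpl21 (87.3%), Mrpl24 (55.0%) and Mrps18b (45.5%), and held 0%, 7.90% and 10.1% in replicate 2. The replicate 1 shares rest on 40 counts for Mrpl22, 29 for Mrps18a and 28 for Mrps18b, whose coding Mrps18b-201 held 39.5% there. The 5 genes with the reverse were Mrpl19, Mrpl47, Mrps5, Mrps14 and Mrps25. For Mrps14 the coding Mrps14-203 held 87.8% and 11.7%, and Mrps14-201, annotated as a target of nonsense-mediated decay, held 6.07% and 85.7%. For Mrps25 the coding Mrps25-203 held 85.4% in replicate 1 and 12.5% in replicate 2, and Mrps25-201, annotated as retaining an intron, held 0% and 81.1%.

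The leading transcript also changed for Mrpl3, Mrpl17, Mrpl19, Mrpl20, Mrpl40, Mrpl47, Mrpl48, Mrpl55, Mrpl58, Mrps5, Mrps14, Mrps23 and Mrps33. In Mrpl58 a transcript without a coding sequence held 74.0% in replicate 1 and 0% in replicate 2, where the coding Mrpl58-202 held 60.7%, although replicate 1 had 22 counts for the gene. In Mrps23 the coding Mrps23-204 held 58.4% and 0.22%, and the coding Mrps23-201 held 27.8% and 71.7%. At a minimum of 100 counts in each library, 18 of 30 genes with several transcripts had the same leading one.

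**Figure D3:**
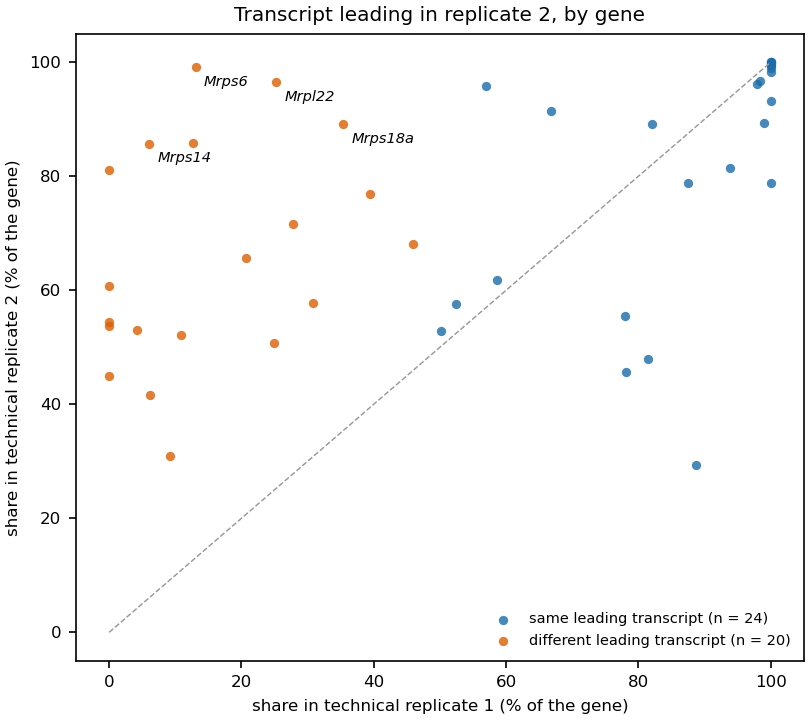
Share of the gene's abundance, in percent, held by the transcript that leads in replicate 2, in replicate 1 (x axis) and replicate 2 (y axis), for 44 Mrpl and Mrps genes with several transcripts and at least 20 counts in each library. The 24 genes with the same leading transcript are blue and the 20 with different ones orange, and the dashed line marks equal shares.

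Some reads of these genes could be shared with other features. On the other strand, 35 of the 77 genes overlap an annotated gene and 22 a protein-coding gene. The sources used here do not give the strand setting of the counting, so the reads of overlapping genes cannot be told apart. By their annotated spans, 4 genes overlap a protein-coding gene on the same strand. Mrps6 overlaps Slc5a3 (252 and 196 counts in replicates 1 and 2), Mrps24 overlaps Urgcp (96 and 1170), and Mrpl53 overlaps Gm42688 (3.1 and 53.6). Mrps34 shares 642 bases at 99.8% identity with transcripts of its same-strand neighbour Nme3, which had 1.58 and 107 counts. Mrpl23, with 2 and 359 counts, has a processed pseudogene, Mrpl23-ps1, identical over 540 bases, to which 5 and 218 counts were assigned. The level of Mrpl23 is therefore uncertain. Mrps36 matches 2 pseudogenes named for it at 99.0% and 99.3% identity, but they held 0 counts in replicate 1 and 2.41 and 1.15 in replicate 2.

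The other components of mitochondrial translation were taken from fixed lists. Of 5 mitoribosomal proteins with other names, the small subunit genes Dap3, Ptcd3 and Chchd1 had 139, 359 and 312 nuclear TPM in replicate 1 and 168, 112 and 181 in replicate 2. Aurkaip1, also of the small subunit, had 4.43 and 129 nuclear TPM, and Gadd45gip1, of the large subunit, had 1.25 and 28.6. The median of these 5 was 139 and 129 nuclear TPM, against 42.9 and 93.4 for the Mrpl and Mrps genes. The 16 translation factor genes had a median of 40.6 and 49.95 nuclear TPM. In replicate 2, 4 of them (25%) were higher and 5 (31.25%) lower, near the 33.4% and 29.2% of all nuclear genes with enough counts. They were led by Gfm1, an elongation factor, at 225 and 206, Tufm, the elongation factor that delivers tRNA, at 9.28 and 279, and Slirp, an RNA-binding protein, at 193 and 77.8.

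Genes for ribosome assembly and for mitochondrial tRNA synthetases had lower median levels. The 26 ribosome assembly genes had a median of 6.30 and 21.5 nuclear TPM. Of these, 16 (61.5%) were higher and 3 (11.5%) lower, against 33.4% and 29.2% of all nuclear genes with enough counts. The 3 leading assembly genes were Mterf3 at 391 and 64.2, Fastkd2 at 93.1 and 25.6, and Malsu1 at 38.1 and 38.2. The 17 mitochondrial tRNA synthetase genes had a median of 9.97 and 20.4, with 9 higher (52.9%) and 4 lower (23.5%), and were led by Yars2, Iars2 and Rars2. Sars2, the head-to-head neighbour of Mrps12, was listed at 0 in replicate 1 and had 12.8 nuclear TPM on 167 counts in replicate 2.

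Nuclear genes for the respiratory chain and genes for the cytosolic ribosome had higher median levels. The 82 nuclear genes for respiratory chain subunits had a median of 292 and 1240 nuclear TPM. Of 80 with enough counts, 47 (58.75%) were higher and 8 (10%) lower in replicate 2, against 33.4% and 29.2% of all nuclear genes. Uqcrb, of complex III, had 9552 and 2180, Ndufa4 had 7083 and 4244, and Atp5a1, of ATP synthase, had 6301 and 4078. The median of the Mrpl and Mrps genes was below that of these genes by a mean log2 difference of -3.25 ± 0.68 (SD, n = 2 libraries). The 80 genes for cytosolic ribosomal proteins had a median of 84.2 and 623, and of 78 with enough counts 58 (74.4%) were higher and 2 (2.56%) lower. Their leading genes were Rps24 at 3883 and 1906, Rplp1 at 40.2 and 2161, and Rps29 at 39.8 and 1977. The mean log2 difference of the Mrpl and Mrps genes from them was -1.85 ± 1.25 (SD, n = 2 libraries), so its size differed between the libraries more than that of the respiratory chain genes.

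**Figure D4:**
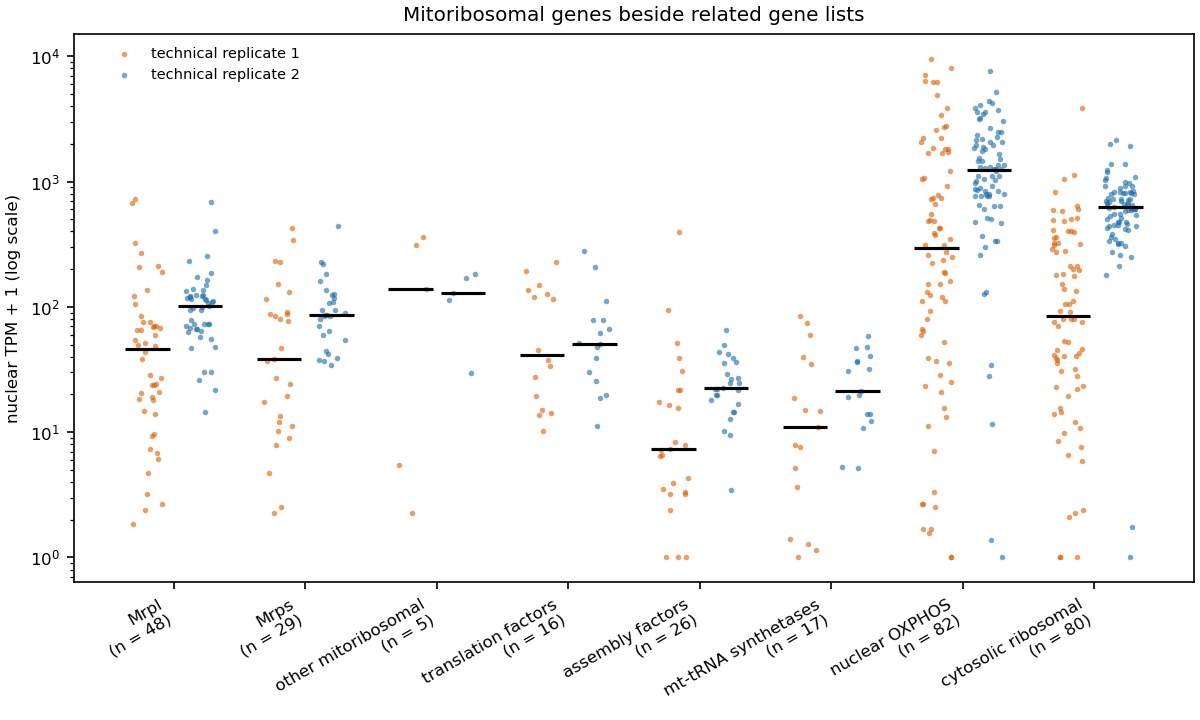
Nuclear TPM + 1 on a log axis for the Mrpl and Mrps genes and 6 gene lists, with technical replicate 1 in orange and technical replicate 2 in blue. Points are genes and black lines are medians. The medians of the Mrpl and Mrps genes lie above those of the assembly factors and tRNA synthetases and below those of the respiratory chain and cytosolic ribosomal genes in both libraries.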

How the data were processed

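A table of genes and a table of transcripts were used per library. Expected counts, TPM, FPKM and, for transcripts, the percent of a gene's abundance (IsoPct) are deposited values. They were estimated on mouse assembly mm10 with annotation M4, per the deposited file descriptions (program and strand setting: not given in the sources used here). For count scalings only, expected counts were rounded. Nuclear TPM leaves out mitochondrial genes and 11 nuclear copies of them (at least 95% identity over at least 90% of the length, blastn 2.17.0) and keeps the deposited sum. Ratios used a pseudocount of 1 nuclear TPM and genes with at least 20 counts over both libraries, with 2-fold as the limit. The GC trend is the median ratio in 50 bins of GC content. Intervals are 95% exact binomial. Alternatives covered scaling (edgeR 4.0.16 TMM, median-of-ratios size factors), pseudocount, count minimum, fold, abundance estimate and subunit assignment. The ratio step was tested on simulated counts. No test between groups was run.

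Of 43346 Ensembl genes, 42462 matched a GENCODE M21 symbol (GRCm38, the same assembly as mm10). Coordinates are 1-based and from M21. Divergent starts and overlaps come from M21, and pseudogene matches from blastn (at least 95% identity over at least 80% of the other transcript). The named genes are the 6 highest and 4 lowest Mrpl and Mrps genes by mean nuclear TPM, the 4 largest and 4 smallest ratios, 11 fixed genes, the 5 mitoribosomal genes with other names, the 3 highest genes of each list and those whose leading transcript differs. The genes and lists were chosen with earlier results of these data known. Python 3.11.15, pandas 2.3.3, scipy 1.17.1 and R 4.3.3 were used.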

Additional observations from a re-analysis of the deposited data

How the results depend on the processing

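The counts of genes at least 2-fold higher (37) or lower (9) in replicate 2 and the median log2 ratio (0.87) depended most on scaling. On deposited TPM without rescaling they were 74, 0 and 2.86, where all genes had a median of 1.35. With TMM on counts, 4 genes were lower and the median was 0.98, against 0.22 over all genes. With the GC trend removed, 3 were lower (10.6% of all genes) and the median was 0.59, against 0 over all genes. With posterior mean TPM, 5 were lower and the median was 1.06, against 0.03 over all genes. A limit of 1.5-fold gave 14 lower genes and a limit of 4-fold gave 1, by construction. Apart from the GC setting, the shares of all genes in these settings are not given here, so the counts are no result about the set. With at least 20 counts in each library, an alternative chosen after seeing the data, 59 genes were left, 19 were higher and the median was 0.27, against -0.67 over all genes at that minimum, since genes low in replicate 1 drop out. In every one of these settings the median of the set stayed above that of all genes tested. The log2 ratio of Mrpl over Mrps medians (0.25) was -0.17 among genes with at least 1 TPM in both libraries (-0.39 in replicate 1 and 0.05 in replicate 2), and ran from 0.22 without replicate 1 to 0.27 without replicate 2. The other alternatives, FPKM, subunit by structure, pseudocounts, size factors, other count minimums and protein-coding scaling, moved these values less.

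On deposited TPM all 77 genes were higher in replicate 2, so every one of the 24 genes lower on the nuclear scale turned. This follows from the scale factors of 13.9 and 2.56 because no log2 ratio of the set lay below -2.01. On deposited TPM the log2 ratio was 0.35 for Mrpl1, 1.23 for Mrpl3, 0.69 for Mrpl50, 0.95 for Mrps18c, 1.23 for Mrps30 and 1.00 for Mrps33. Of 19 genes that turned with the GC trend removed, the ratio was 0.0067 for Mrpl50, -0.089 for Mrps12, 0.32 for Mrps30 and 0.012 for Mrps33, and 0.23 for Mrpl32 and -0.083 for Mrpl34 among those outside the rule for named genes. With TMM 7 genes turned, of which Mrps14 alone had differed at least 2-fold, at -0.31, and at -0.41 with size factors. The causes of the turns other than on deposited TPM were not tested. Counting error limits replicate 1, where 18 genes had under 20 counts. No paired analysis was possible because there is 1 group.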
